A study of Mus musculus with 15 samples.

Results

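The genes of collagen hydroxylation and crosslinking were followed in the hearts of mice with chronic kidney disease (CKD), with and without cardiac overexpression of renalase (RNLS). The set holds 10 genes, chosen by name from the count table: the prolyl 4-hydroxylase subunits P4ha1, P4ha2 and P4hb, the lysyl hydroxylases Plod1, Plod2 and Plod3, the collagen chaperone Serpinh1, and the lysyl oxidases Lox, Loxl1 and Loxl2. They are 10 of the 17447 genes in the table, and all 10 were among the 13021 genes with enough counts to be tested.

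Hearts were taken from male C57BL/6J mice 18 weeks after surgery, and 15 libraries of messenger RNA, 3 per group, were sequenced. The mice were 6 to 8 weeks old at the start. WTSHAM mice were wild type and had surgery without loss of kidney tissue, and the other 4 groups had a 5/6 nephrectomy in 2 steps. WTCKD mice were wild type and received the empty vector by tail vein at week 2, whereas WTCKD + RNLS mice received AAV9-cTnT-RNLS, a virus that carries renalase under the cardiomyocyte-specific cardiac troponin T promoter. KOCKD and KOCKD + RNLS mice were rnls-/-, made with a nuclease directed at exon 4, and received the vector and the virus respectively. Whether sham mice received a vector was not stated, and a knockout group without CKD was not analysed here. Rnls itself was not among the genes of the table, so genotype and virus could not be checked from these counts.

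Fibrillar collagen is modified in the endoplasmic reticulum before it is secreted. Prolyl 4-hydroxylases convert proline to hydroxyproline, which stabilises the triple helix, lysyl hydroxylases convert lysines that later form crosslinks or carry sugars, and Serpinh1 encodes HSP47, a heat-inducible chaperone that binds the folded helix. Outside the cell, the lysyl oxidases oxidise lysine and hydroxylysine, the step that starts the crosslinks which make a collagen network stiff, and fibroblasts are the main source of this matrix in the heart.

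The libraries held 10480788 to 13424078 counted reads. WTSHAM replicate 1 stood apart from the other sham hearts in heat shock genes: Hspa1a was at 82.5 CPM there (read count scaled to the size of the library) and at 1.35 and 2.28 CPM in WTSHAM replicates 2 and 3. The summed level of 10 atrial markers varied between hearts, from 520 CPM in KOCKD + RNLS to 3180 CPM in 1 KOCKD heart. Cardiomyocyte markers summed to 98400 to 120000 CPM in every library, and none of the 10 fibroblast markers was at 0. In whole hearts, fewer cells of a type and less RNA per cell cannot be told apart.

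Compared per length, in the FPKM deposited by the authors, the set spanned a wide range in WTSHAM hearts. Serpinh1 was the most abundant (164 ± 25.9 FPKM, SD, n = 3) and P4hb followed (102 ± 6.50), the latter also known as protein disulfide isomerase and shared with reactions outside collagen. Plod1 (45.6 ± 0.423), P4ha2 (30.5 ± 4.89), P4ha1 (20.9 ± 5.51), Loxl1 (18.7 ± 3.90) and Plod3 (16.7 ± 0.871) lay in the middle. Loxl2 (3.81 ± 1.47), Plod2 (3.05 ± 0.200) and Lox (1.58 ± 0.0335) were the lowest, with Lox between 1.79 and 7.17 CPM over the 15 hearts.

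Across the 5 groups, 7 of the 10 genes differed (F test of any difference, adjusted p under 0.05), beside 22.2% of all tested genes. The lowest adjusted p values were those of Serpinh1 (0.00019) and Loxl1 (0.000276), ranked 49 and 71 among the 13021 genes. Lox (0.00653), P4ha2 (0.00821), Plod3 (0.0099), Loxl2 (0.0112) and P4ha1 (0.0155) followed. P4hb (0.289), Plod1 (0.233) and Plod2 (0.231) did not pass. The group means of 7 genes (P4ha1, Plod1, Plod3, Serpinh1, Lox, Loxl1 and Loxl2) stood in 1 order, with WTSHAM highest, then WTCKD, KOCKD, WTCKD + RNLS and KOCKD + RNLS, an order held by 2.54% of all tested genes. The order was taken from Serpinh1 in these same data, so the share is a description and not a test. In none of the 10 genes did WTCKD and KOCKD, neighbours in that order, separate in CPM. Among the 7 genes, only Loxl1 separated between KOCKD and WTCKD + RNLS, and P4ha1, Plod1 and Loxl2 separated at no step.

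**Figure D1:**
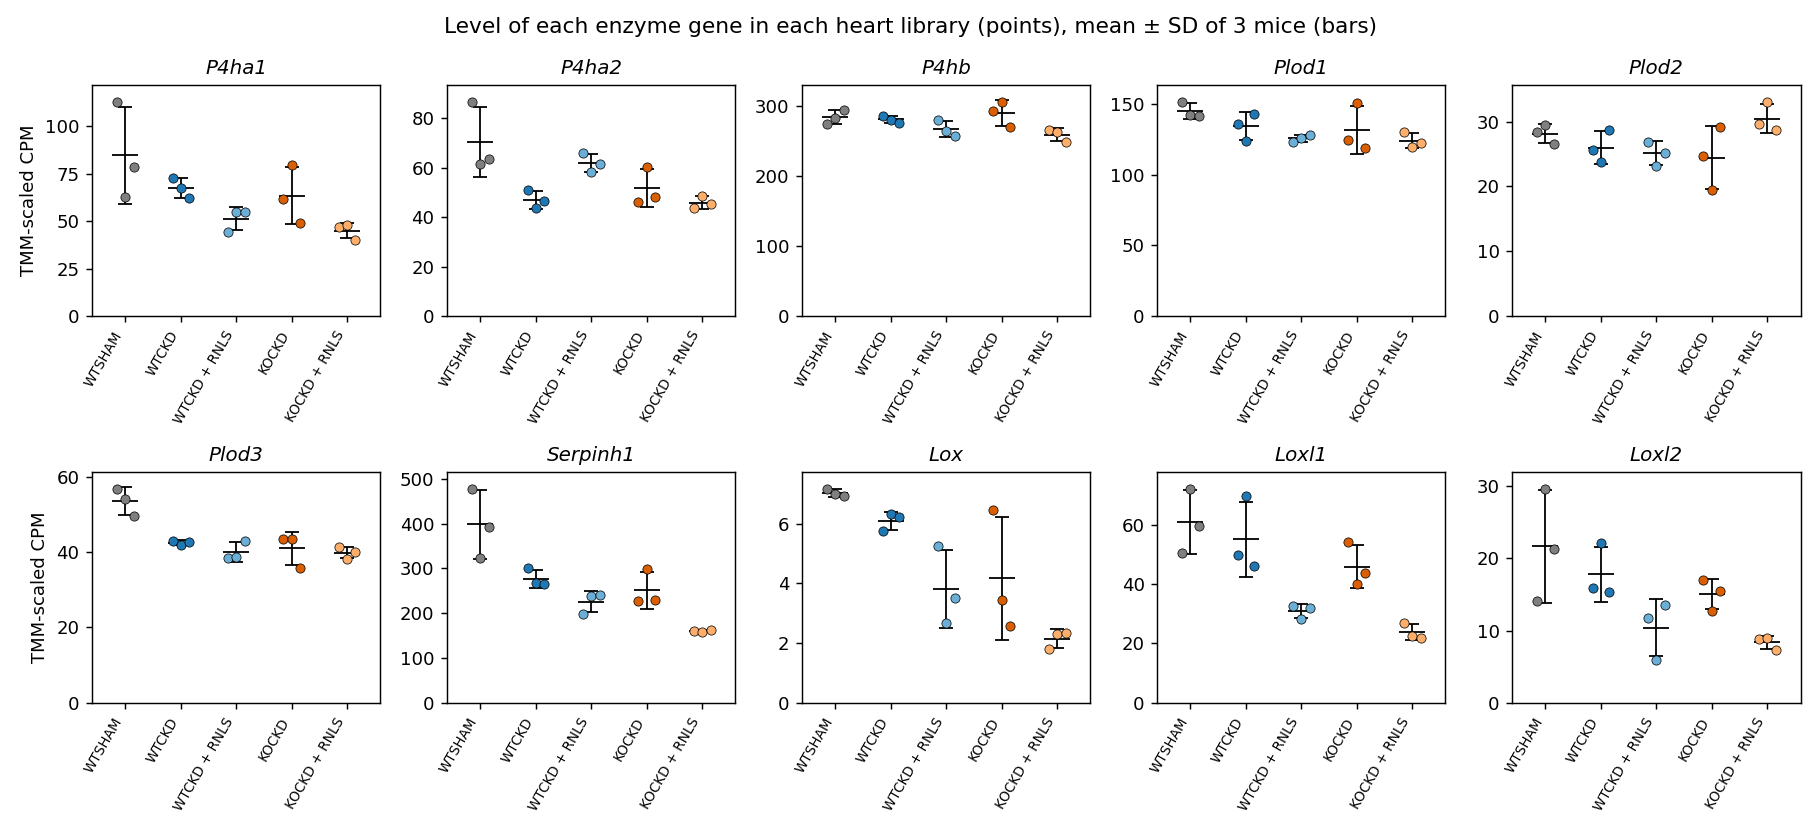
Level of the 10 genes in each heart (points, TMM-scaled CPM on linear axes from 0) by group, with mean ± SD of 3 mice. Serpinh1 runs from 398 CPM in WTSHAM to 160.2 CPM in KOCKD + RNLS, Loxl1 from 60.8 to 23.8, while P4hb stays between 249 and 306 CPM in every heart.

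Serpinh1, the collagen chaperone, was lower in CKD hearts than in sham hearts and, in the knockout, lower with RNLS than with vector. It was at 478, 324 and 392.4 CPM in the 3 WTSHAM hearts, at 300.2, 266 and 265 in WTCKD, and at 199, 239 and 241 in WTCKD + RNLS. In the knockout it was at 227, 298 and 229 CPM in KOCKD and at 160.1, 159 and 162 in KOCKD + RNLS. No WTCKD heart reached the lowest sham heart, no RNLS-treated heart reached the lowest vector heart of its genotype, and the 3 KOCKD + RNLS hearts lay closest together.

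The Serpinh1 log2 fold change was -0.52 ± 0.13 (SE) in WTCKD against WTSHAM (0.696-fold, adjusted p = 0.0474). It was -0.65 ± 0.13 in KOCKD + RNLS against KOCKD (0.637-fold, adjusted p = 0.0054). In WTCKD + RNLS against WTCKD the value was -0.29 ± 0.13 (0.816-fold, adjusted p = 0.221), which did not pass. The CKD call was kept without WTSHAM replicate 2 (-0.65, adjusted p = 0.0157) and lost without WTSHAM replicate 1, the heart with the high Hspa1a (-0.37, adjusted p = 0.12). It was also lost without WTSHAM replicate 3 (-0.53, adjusted p = 0.0933) and without WTCKD replicate 1 (-0.58, adjusted p = 0.0952), 2 (-0.50, adjusted p = 0.131) or 3 (-0.49, adjusted p = 0.155). With the mean level of 14 heat shock genes as a covariate it was lost as well (-0.36, adjusted p = 0.109), whereas the knockout call was kept with it (-0.57, adjusted p = 0.0047).

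P4ha1 and P4ha2 encode the alternative catalytic subunits of prolyl 4-hydroxylase, and their log2 fold changes with RNLS had opposite signs in wild type. P4ha2 was at 86.5, 61.4 and 63.3 CPM in WTSHAM, at 50.8, 43.8 and 46.4 in WTCKD, and at 65.8, 58.2 and 61.5 in WTCKD + RNLS. All 3 WTCKD hearts were below all WTSHAM and all WTCKD + RNLS hearts. In the knockout it was at 46.2, 60.4 and 48.3 CPM in KOCKD and at 43.8, 48.7 and 45.2 in KOCKD + RNLS, and these overlapped.

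P4ha2 fell with CKD (log2 fold change -0.58 ± 0.13, 0.669-fold, adjusted p = 0.023). With RNLS its log2 fold change was 0.40 ± 0.13 in wild type (1.32-fold, unadjusted p = 0.00668, adjusted p = 0.0899) and -0.17 ± 0.13 in the knockout (adjusted p = 0.393). The difference between these, knockout minus wild type, was -0.56 ± 0.18 (95% interval -0.95 to -0.18, unadjusted p = 0.00647, adjusted p = 0.159). P4ha2 was the only one of the 10 genes under an unadjusted p of 0.05 in that contrast, and none of the 13021 genes passed after adjustment (2288 were under an unadjusted p of 0.05). DESeq2 called 363 genes there, none of them among the 10. The CKD call of P4ha2 was lost without WTSHAM replicate 1 (-0.41, adjusted p = 0.058) and without WTCKD replicate 1 (-0.64, adjusted p = 0.0517), 2 (-0.54, adjusted p = 0.0848) or 3 (-0.57, adjusted p = 0.0878), and with only the libraries compared (-0.58, adjusted p = 0.0936) or the heat shock score (-0.43, adjusted p = 0.0546).

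P4ha1 was at 113, 62.7 and 78.5 CPM in WTSHAM, at 72.6, 67.3 and 62.3 in WTCKD and at 44.1, 54.8 and 54.6 in WTCKD + RNLS. It was at 61.9, 79.3 and 49.2 CPM in KOCKD and at 47.0, 47.7 and 40.3 in KOCKD + RNLS. Every RNLS-treated heart was below every vector heart of its genotype, but the differences did not pass the edgeR test. The log2 fold change was -0.33 ± 0.18 with CKD (adjusted p = 0.383), and with RNLS the values were -0.40 ± 0.19 (adjusted p = 0.245) in wild type and -0.49 ± 0.19 (adjusted p = 0.0834) in the knockout. The knockout difference was called by DESeq2 (-0.50, adjusted p = 0.0467), with only the libraries compared (-0.49, adjusted p = 0.0302), without KOCKD replicate 3 (-0.65, adjusted p = 0.0417) and with the atrial (-0.64, adjusted p = 0.0332) or fibroblast (-0.57, adjusted p = 0.0387) marker score as a covariate, and without 1 library it ranged from -0.65 to -0.30. The shared subunit P4hb had log2 fold changes of -0.02, -0.07 and -0.16 in the same 3 comparisons, with 95% intervals that together ran from -0.31 to 0.13. Its 3 KOCKD + RNLS hearts (249 to 265 CPM) were all below the 3 KOCKD hearts (269.6 to 306 CPM), with an adjusted p of 0.125.

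Serpinh1, P4ha1 and P4ha2 also varied together between hearts of a group, as given after the lysyl oxidases, and their promoters are shown. Plod1 varied with these genes as well (r = 0.63, 0.59 and 0.58), and its promoter is not shown. The 250 bases before each start site are printed from RefSeq (GRCm38.p6), 5′ to 3′ on the strand of the gene, with ACGTG or its reverse complement CACGT, the core of the hypoxia-response motif, in capitals. The windows are chr10:59323046-59323295 (plus strand) for P4ha1, chr11:54100674-54100923 (plus strand) for P4ha2 and chr7:99353240-99353489 (minus strand) for Serpinh1.
P4ha1: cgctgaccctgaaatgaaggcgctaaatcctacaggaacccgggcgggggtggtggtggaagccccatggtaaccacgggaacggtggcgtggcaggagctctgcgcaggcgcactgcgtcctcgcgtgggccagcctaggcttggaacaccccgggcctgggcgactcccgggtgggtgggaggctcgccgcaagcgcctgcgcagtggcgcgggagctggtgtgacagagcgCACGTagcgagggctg
P4ha2: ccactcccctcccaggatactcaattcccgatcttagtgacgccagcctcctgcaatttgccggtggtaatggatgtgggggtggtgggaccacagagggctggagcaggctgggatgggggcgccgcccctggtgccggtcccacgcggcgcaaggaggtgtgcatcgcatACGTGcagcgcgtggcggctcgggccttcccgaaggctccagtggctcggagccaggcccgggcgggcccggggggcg
Serpinh1: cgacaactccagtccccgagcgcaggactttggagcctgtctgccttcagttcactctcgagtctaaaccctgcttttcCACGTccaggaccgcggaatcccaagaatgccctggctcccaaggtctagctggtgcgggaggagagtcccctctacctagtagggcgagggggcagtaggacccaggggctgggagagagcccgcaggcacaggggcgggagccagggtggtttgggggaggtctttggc

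Each window held 1 such core, starting 16 bases (P4ha1), 78 bases (P4ha2) and 171 bases (Serpinh1) before the start site, and 16.6% of the 32851 windows in the table held it. The heat shock element was searched as GAANNTTC (in 6.69% of all windows) and TTCNNGAA (7.17%), both of which read the same on either strand. The letters TTCNNGAA occurred once, in P4ha2, and neither form occurred in the windows of P4ha1 or Serpinh1. Promoters of 6 of the 10 genes were matched, and 5 of these 6 windows held the ACGTG core. Those of P4hb (56 bases before the start) and Plod3 (54 bases), which are not among the genes shown, held it too. That of Plod1, which varied together with the genes shown, did not. Promoters of Plod2, Lox, Loxl1 and Loxl2 were not matched.

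The lysyl oxidases had the most negative log2 fold changes of the 10 genes with RNLS, in both genotypes. Loxl1, which acts mainly on elastin and collagen fibres, was at 50.6, 72.1 and 59.6 CPM in WTSHAM and at 49.8, 69.6 and 46.1 in WTCKD. It was at 32.5, 28.1 and 31.9 CPM in WTCKD + RNLS, at 54.1, 40.1 and 43.6 in KOCKD, and at 26.8, 22.7 and 21.8 in KOCKD + RNLS. All 6 RNLS-treated hearts were below all 9 others, and CKD hearts overlapped sham hearts.

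Loxl1 fell with RNLS in wild type (log2 fold change -0.84 ± 0.16, 95% interval -1.18 to -0.49, 0.56-fold, adjusted p = 0.00941). It fell in the knockout as well (-0.95 ± 0.17, 95% interval -1.30 to -0.60, 0.518-fold, adjusted p = 0.00286). The 2 effects differed by -0.11 ± 0.23 (95% interval -0.60 to 0.38, adjusted p = 0.845). In CKD against sham the log2 fold change was -0.14 ± 0.16 (adjusted p = 0.7). Loxl1 passed in all 6 fits of each comparison that left out 1 of the libraries compared, with adjusted p from 0.0101 to 0.0498 in wild type and from 0.00614 to 0.0146 in the knockout.

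Loxl2, a relative that also crosslinks basement-membrane collagen, was at 14.1, 29.6 and 21.3 CPM in WTSHAM and at 15.9, 22.1 and 15.3 in WTCKD. It was at 11.8, 5.94 and 13.5 CPM in WTCKD + RNLS, at 17.0, 12.8 and 15.5 in KOCKD and at 8.78, 9.02 and 7.31 in KOCKD + RNLS. RNLS-treated and vector hearts did not overlap in either genotype. The log2 fold changes were -0.76 ± 0.27 in wild type (adjusted p = 0.129) and -0.85 ± 0.28 in the knockout (adjusted p = 0.0509), both short of the threshold. The knockout difference was called with no low-count filter (-0.84, adjusted p = 0.039), with RLE scaling (-0.85, adjusted p = 0.0487), by DESeq2 (-0.85, adjusted p = 0.0161) and with only the libraries compared (-0.85, adjusted p = 0.00297). It was not called in any of the 6 fits without 1 library (-0.95 to -0.75, adjusted p from 0.0761 to 0.141). With the replicate number as a block it was not called either (-0.85, adjusted p = 0.0687).

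Lox, the founding member of the family, was close to the level of a few CPM. It was at 7.17, 6.99 and 6.92 CPM in WTSHAM, 5.75, 6.34 and 6.21 in WTCKD and 5.26, 2.69 and 3.52 in WTCKD + RNLS. KOCKD hearts spread widely (6.48, 3.45 and 2.58 CPM), and KOCKD + RNLS hearts were at 1.79, 2.32 and 2.34. The log2 fold change with RNLS was -0.67 ± 0.29 in wild type (adjusted p = 0.203) and -0.95 ± 0.31 in the knockout (0.517-fold, adjusted p = 0.0489). The knockout call of Lox was kept without KOCKD replicate 3 (-1.21, adjusted p = 0.019) and lost without any 1 of the other 5 libraries compared. Without KOCKD replicate 1, the highest of its group, the value was -0.48 (adjusted p = 0.278), and without KOCKD replicate 2 or KOCKD + RNLS replicate 1, 2 or 3 it was -1.06, -0.83, -1.01 and -1.01 (adjusted p = 0.0736, 0.15, 0.104 and 0.0896). It was also lost with gene-length offsets (-1.02, adjusted p = 0.0599), with only the libraries compared (-0.95, adjusted p = 0.0699) and with the atrial, fibroblast or heat shock score (adjusted p = 0.0573, 0.073 and 0.0502).

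**Figure D2:**
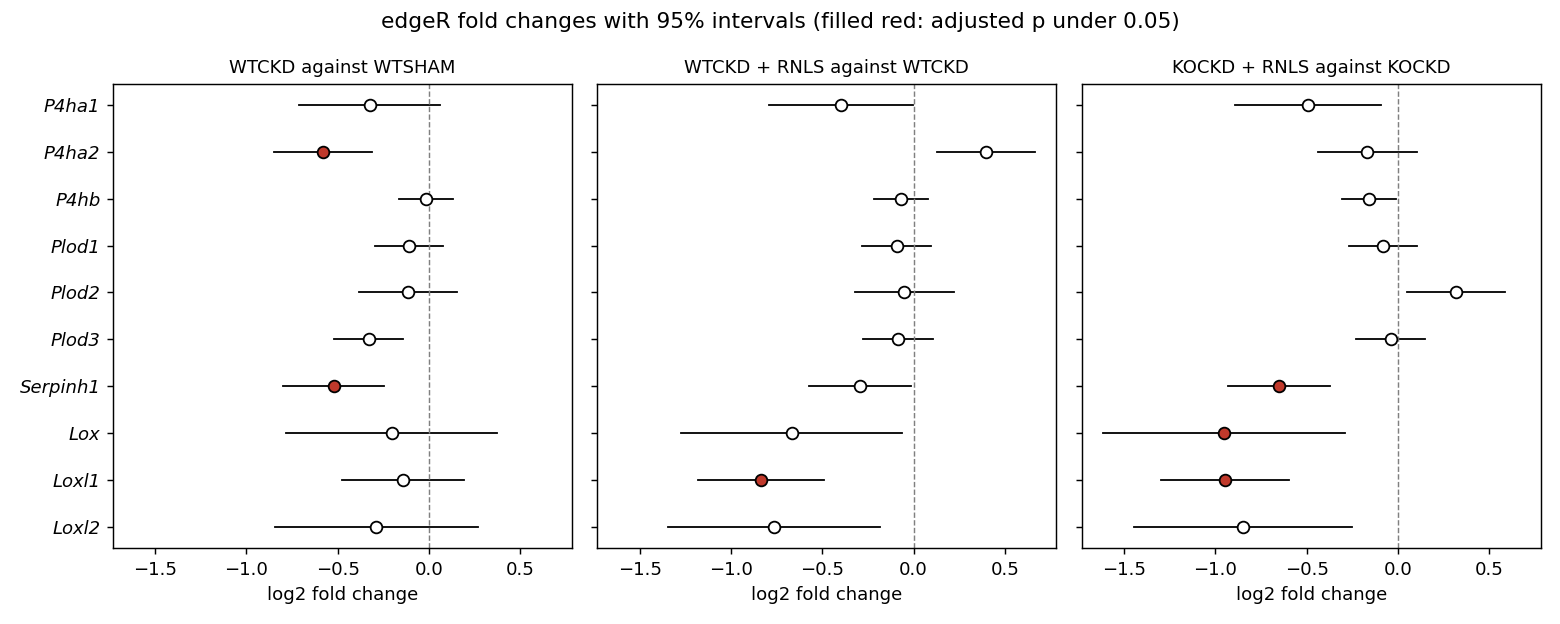
Fold changes (log2) of the 10 genes in 3 comparisons (CKD against sham, and RNLS against vector in each genotype), with 95% intervals from the quasi-likelihood fit and filled points for an adjusted p under 0.05. Under RNLS, Loxl1, Loxl2 and Lox lie at -0.67 to -0.95 in both genotypes, and P4ha2 in wild type and Plod2 in the knockout lie on the other side of 0.

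The lysyl hydroxylases, which act on lysines of the helix (Plod1), of the telopeptides (Plod2) or of both while also adding sugars (Plod3), were not called by edgeR in any comparison of a pair of groups. Plod3 was at 56.8, 54.1 and 49.6 CPM in WTSHAM and at 43.0, 41.9 and 42.6 in WTCKD, which did not overlap. Its log2 fold change there was -0.33 ± 0.09 (adjusted p = 0.0617), which was called by DESeq2 (-0.32, adjusted p = 0.0341) and with gene-length offsets (-0.35, adjusted p = 0.0342). It was not called in any of the 6 fits without 1 library (adjusted p from 0.0576 to 0.164). With the replicate number as a block it was not called either (-0.33, adjusted p = 0.0872). With RNLS the log2 fold change was -0.09 in wild type and -0.04 in the knockout. The 4 CKD groups lay between 35.9 and 43.6 CPM.

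Plod1 lay between 119 and 152 CPM in all 15 hearts, and its log2 fold changes were -0.11, -0.09 and -0.08. Plod2 was at 24.8, 19.4 and 29.1 CPM in KOCKD and at 29.7, 33.0 and 28.7 in KOCKD + RNLS, and these overlapped. Its log2 fold change with RNLS was 0.32 ± 0.13 in the knockout (unadjusted p = 0.0242, adjusted p = 0.0993) and -0.05 ± 0.13 in wild type. The knockout value was 0.05 with gene-length offsets (adjusted p = 0.859), 0.18 without KOCKD replicate 2 (adjusted p = 0.354) and 0.47 without KOCKD replicate 3, where it was called (adjusted p = 0.0263).

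Counted over the set, CKD against sham called 0 genes higher and 2 lower (P4ha2 and Serpinh1), beside 0.599% higher and 1.7% lower among all tested genes. RNLS called 0 higher and 1 lower in wild type (Loxl1), beside 2.19% and 2.28%. In the knockout it called 0 higher and 3 lower (Serpinh1, Lox and Loxl1), beside 9.05% and 7.04%. Both wild-type comparisons use the same WTCKD hearts. KOCKD against WTCKD called none of the 10 genes and none of all 13021 (1318 were under an unadjusted p of 0.05, 0 of them in the set), and DESeq2 called 9 genes, 0 in the set.

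The study's own rule was an absolute log2 fold change over 0.32 with an unadjusted p under 0.05. The study took its p-values from DESeq, whereas here the rule was applied to the edgeR fit. By that rule CKD gave 0 genes higher and 3 lower (P4ha2, Plod3 and Serpinh1), beside 3.66% and 7.63% of all genes. RNLS in wild type gave 1 higher (P4ha2) and 4 lower (P4ha1, Lox, Loxl1 and Loxl2), beside 6.31% and 8.09%. RNLS in the knockout gave 0 higher and 5 lower (P4ha1, Serpinh1, Lox, Loxl1 and Loxl2), beside 12.2% and 10.1%. For the difference between the RNLS effects the rule gave 0 higher and 1 lower (P4ha2), beside 6.78% and 8.43%.

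The CPM values of the compared groups did not overlap for 4 genes in CKD against sham, all lower (P4ha2, Plod3, Serpinh1 and Lox), beside 12.2% of all genes lower and 10.3% higher. With RNLS in wild type they did not overlap for 5 genes in the lower direction (P4ha1, Serpinh1, Lox, Loxl1 and Loxl2), beside 10.8%, and for P4ha2 in the higher direction, beside 10.4%. With RNLS in the knockout 6 genes lay apart, all lower (P4ha1, P4hb, Serpinh1, Lox, Loxl1 and Loxl2), beside 20% lower and 20.6% higher. In KOCKD against WTCKD 0 of the 10 genes lay apart, beside 9.43% lower and 9.84% higher. The median log2 fold change of the 10 genes was -0.25 with CKD, -0.19 with RNLS in wild type and -0.33 with RNLS in the knockout, where the median of all genes was -0.005, 0.012 and -0.009.

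Between hearts of the same group the 10 genes did not vary as 1 unit. With group means removed, P4ha1, P4ha2, Plod1 and Serpinh1 correlated with each other (Pearson r of log2 CPM from 0.58 to 0.91 over 6 pairs, 15 libraries) and were inversely related to Loxl1 and Loxl2 (-0.65 to -0.41 over 8 pairs). Loxl1 and Loxl2 correlated with each other at 0.77. Serpinh1 and Loxl1 thus deviated in opposite directions between hearts of a group (r = -0.63), although both were highest in WTSHAM and lowest in KOCKD + RNLS, and over all hearts without removing the means r was 0.75. These values describe libraries that share their scaling and 3 mice per group, the genes were grouped after the values were seen, and no test is given.

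**Figure D3:**
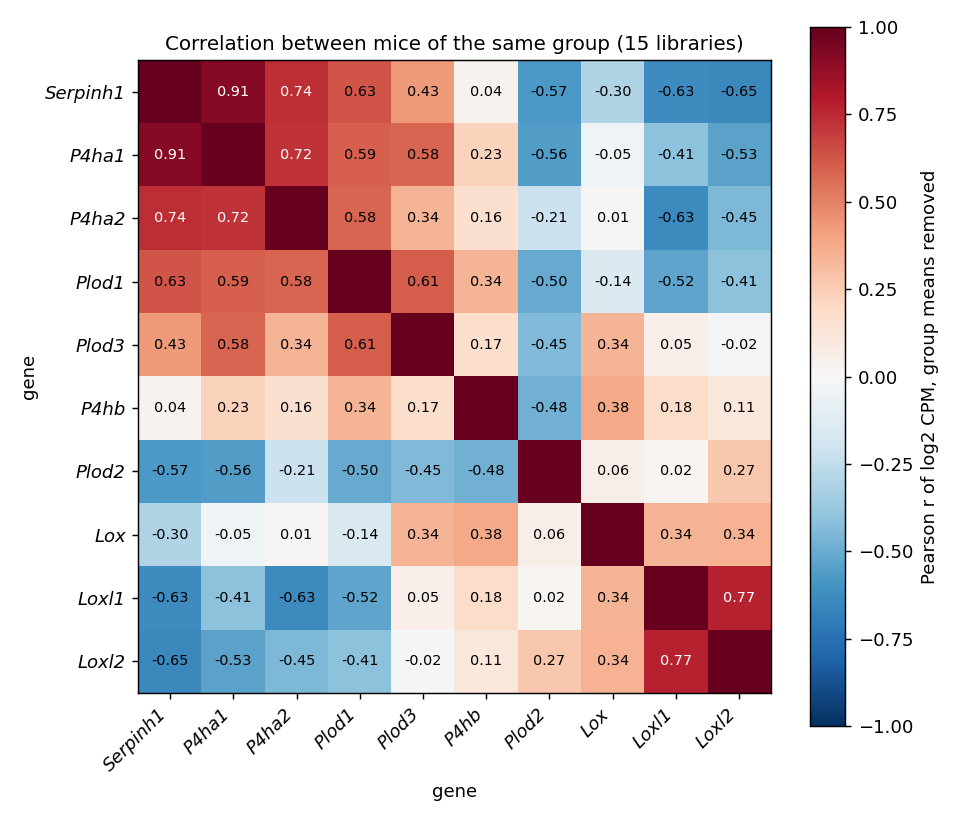
Pearson r between the 10 genes after group means were removed from log2 CPM (15 libraries, colour and number give r). Serpinh1, P4ha1, P4ha2 and Plod1 form a positive block, and Loxl1 and Loxl2 a pair inverse to it, with r from -0.65 to -0.41.

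The sham hearts weighed on this pattern. Serpinh1 lay 0.28 above its group mean on the log2 scale in WTSHAM replicate 1 and 0.28 below it in replicate 2, and P4ha1 lay 0.45 above and 0.39 below. Without the 3 sham hearts (12 libraries) r was 0.83 for Serpinh1 with P4ha1, 0.57 for Serpinh1 with P4ha2 and 0.68 for Loxl1 with Loxl2. For Serpinh1 with Loxl1 and Loxl2 it was -0.45 and -0.41. Leaving out the 2 hearts farthest in Serpinh1, WTSHAM replicates 1 and 2, gave the same 2 values. These hearts are among the sham hearts already left out, so this is not a separate check.

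**Figure D4:**
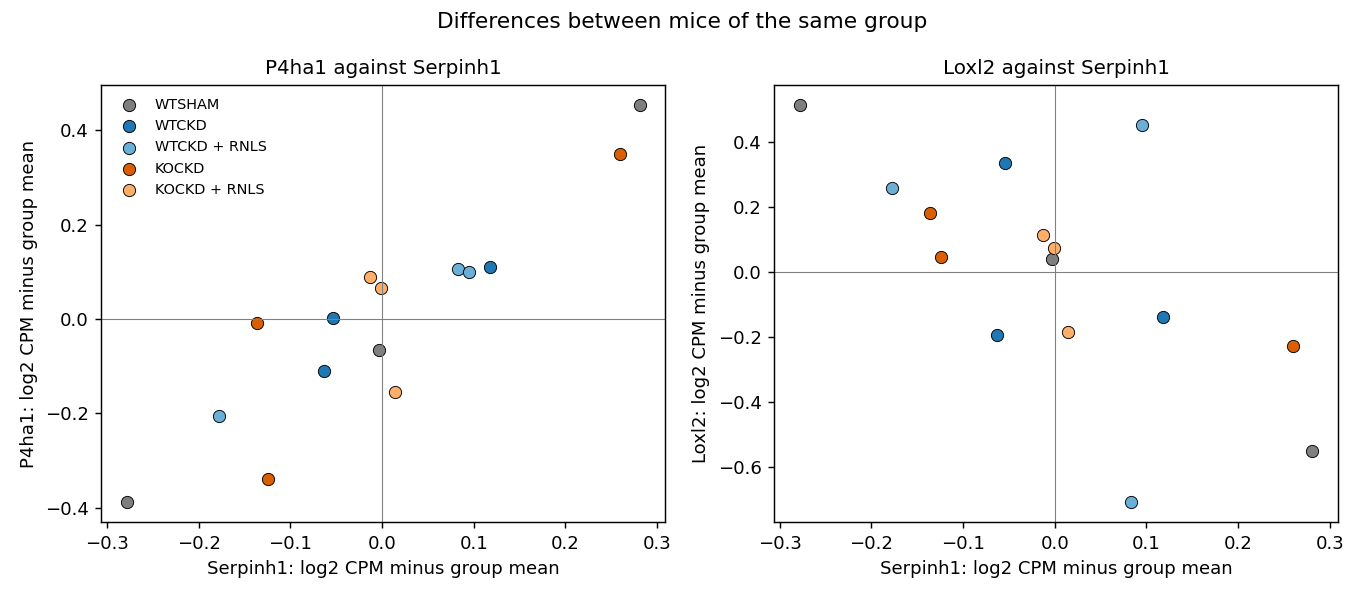
Deviation of P4ha1 (left) and Loxl2 (right) from the group mean against that of Serpinh1 (log2 CPM, 1 point per heart, coloured by group). P4ha1 follows Serpinh1 (r = 0.91) and Loxl2 runs against it (r = -0.65), with WTSHAM hearts at both ends.

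Loxl1 and Loxl2 moved with matrix genes. Their deviations correlated with the mean deviation of 10 fibroblast markers at 0.89 and 0.82 and with that of 15 collagen and elastin genes at 0.81 and 0.85. The genes with deviations most like those of Loxl1 among all tested were Col1a2 (0.95), Fstl1 (0.95), Mmp2 (0.94) and Postn (0.93), chosen after their values were seen. Fibroblast markers summed to 2220 to 3570 CPM in WTCKD and 1780 to 2590 in WTCKD + RNLS, and to 2000 to 2660 in KOCKD and 2180 to 2420 in KOCKD + RNLS. Of the 10 markers, 0 rose and 2 fell with RNLS in wild type, and 0 rose and 1 fell in the knockout. Of all tested genes, 2.19% rose and 2.28% fell in wild type, and 9.05% rose and 7.04% fell in the knockout. Cardiomyocyte markers ran the other way from Loxl1 (r = -0.81), and their summed level separated by RNLS, at 98600 to 113000 CPM in WTCKD against 118000 to 120000 in WTCKD + RNLS, and at 98500 to 103000 in KOCKD against 112000 to 115000 in KOCKD + RNLS. Of these 10 markers, 1 rose and 0 fell in wild type and 3 rose and 0 fell in the knockout. Their median log2 fold change was 0.16 in wild type (8 positive, 2 negative) and -0.007 in the knockout (5 positive, 5 negative). The knockout sum thus did not stand for all of the markers, and their part in the fall of Loxl1 was not tested.

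With the fibroblast score as a covariate, the log2 fold change of Loxl1 with RNLS was -0.43 in wild type (adjusted p = 0.0806) and -0.78 in the knockout (adjusted p = 0.000581). That of Loxl2 was -0.17 (adjusted p = 0.791) and -0.59 (adjusted p = 0.037). The list shares Dcn and Lum with the list of modifying genes below and Col15a1 with the collagens, and the score was added after the values were seen. Loxl2 also followed the scaling factor of the library (r = 0.88) and the slope of the deviations of all genes on gene length (0.81). The scaling factor went with both sides of the pattern between hearts. Its r was 0.76 with Loxl1, -0.69 with Serpinh1, -0.67 with P4ha1, -0.66 with Plod1 and -0.55 with P4ha2. For the remaining genes r ran from -0.32 (Plod3) to 0.26 (Lox). WTCKD + RNLS replicate 2, the heart with the lowest Loxl2, had the lowest scaling factor (0.925) and the most negative slope. The part of the scaling factor and the slope in these results was not tested. With gene-length offsets the log2 fold changes of Loxl2 were -0.78 (adjusted p = 0.0842) and -0.99 (adjusted p = 0.0388).

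Serpinh1, P4ha1 and P4ha2 moved with other genes. Their deviations correlated with the mean of 13 hypoxia-inducible genes at 0.76, 0.79 and 0.78, and at 0.44, 0.50 and 0.66 without the sham hearts. With the collagen and elastin genes r was -0.64, -0.50 and -0.68, and -0.31, -0.01 and -0.40 without sham. With the fibroblast markers it was -0.47, -0.34 and -0.53, and -0.21, 0.01 and -0.30 without sham. A list of 14 heat shock genes, chosen after the values were seen, gave 0.65, 0.64 and 0.66 with all hearts and 0.11, -0.11 and -0.19 without sham. Without sham the 14 single genes spread widely, from -0.42 (Dnajb1) to 0.85 (Hspa8) with Serpinh1, from -0.64 (Dnajb1) to 0.94 (Bag3) with P4ha1 and from -0.38 (Hspd1) to 0.75 (Hspa8) with P4ha2. The inducible chaperone gene Hspa1a was at -0.24, -0.57 and -0.23 with the 3 genes. Outside sham, Hspa1a was highest in KOCKD replicate 3 (14 CPM, against 1.4 and 2.14 in KOCKD replicates 1 and 2). In that heart Serpinh1, P4ha1 and P4ha2 deviated by -0.12, -0.34 and -0.09 from their group means. The cold-inducible genes Cirbp and Rbm3 were likewise listed after the values were seen. Without sham, Cirbp was at -0.88 with Serpinh1, -0.90 with P4ha1 and -0.44 with P4ha2, and Rbm3 at -0.66, -0.89 and -0.32. The heat shock list summed to 4700 to 7950 CPM in WTSHAM, 5310 to 5790 in WTCKD, 4970 to 5780 in WTCKD + RNLS, 4990 to 5990 in KOCKD and 4450 to 4690 in KOCKD + RNLS. Of its 14 genes, 0 rose and 1 fell with CKD, none passed with RNLS in wild type, and 0 rose and 4 fell with RNLS in the knockout. Of all tested genes, 1.7% fell with CKD and 7.04% with RNLS in the knockout. Beyond the covariate fit, the part of the heat shock genes in the fall of Serpinh1 was not tested.

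Several collagens, the main substrates of these enzymes, fell with RNLS in both genotypes. Of 15 collagen and elastin genes, 0 were called higher and 10 lower in wild type, and 0 higher and 8 lower in the knockout, with median log2 fold changes of -0.79 and -0.60. Of all tested genes, 2.28% were called lower in wild type and 7.04% in the knockout. The largest falls in wild type were those of Col3a1 (-1.72), Col5a3 (-1.59) and Col15a1 (-0.99), and in the knockout those of Col5a3 (-1.82), Col3a1 (-1.58) and Eln (-1.24), which encodes elastin. With CKD none of the 15 passed (median -0.31, 14 of them negative).

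Of 27 tested further genes that modify, fold, process or crosslink collagen (29 listed), none passed with CKD. With RNLS in wild type 0 rose and 3 fell, the prolyl 3-hydroxylase P3h2 (-0.95), the collagen-binding Sparc (-0.87) and the procollagen N-proteinase Adamts2 (-0.62). In the knockout P3h2 (-0.89), the prolyl isomerase Fkbp14 (-0.54) and Sparc (-0.48) had the largest falls among 4. There, the related proteinase Adamts3 (0.87) and the procollagen export receptor gene Mia3 (0.37) rose. These counts stand beside 9.05% of all tested genes called higher and 7.04% lower in the knockout, and 2.19% and 2.28% in wild type. The list medians were -0.14, -0.15 and -0.13.

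General chaperones and stress genes of the endoplasmic reticulum, which serve all secreted proteins, were listed for comparison with Serpinh1 and P4hb. With CKD 0 of 16 were called higher and 9 lower (median -0.53), led by Sdf2l1 (-1.15), Manf (-1.03) and Pdia4 (-0.66). With RNLS in wild type 1 rose, the stress transcription factor gene Ddit3 (0.71), and 0 fell (median -0.13). In the knockout 0 rose and 10 fell (median -0.36), led by Sdf2l1 (-1.12), Manf (-0.84) and Hspa5 (-0.49). Serpinh1 passed in CKD against sham and with RNLS in the knockout, and P4hb in neither. Of 13 hypoxia-inducible genes, none passed with CKD or with RNLS in wild type, and in the knockout Hk2 (0.33) rose while Egln3 (-1.25) and Ldha (-0.32) fell. Of all tested genes, 0.599% were called higher and 1.7% lower with CKD. With RNLS the shares were 2.19% and 2.28% in wild type and 9.05% and 7.04% in the knockout.

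**Figure D5:**
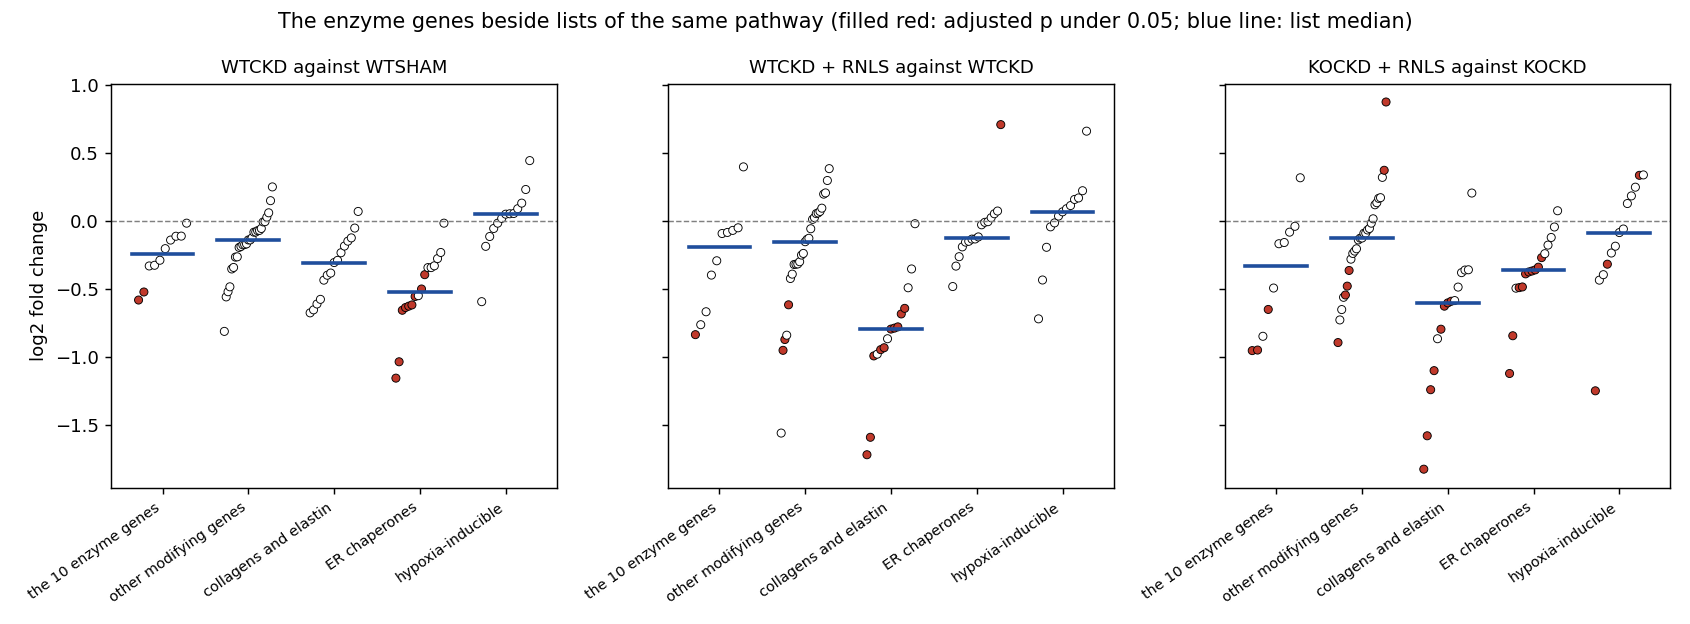
Fold changes (log2, 1 point per gene) of the 10 enzyme genes and of 4 lists in the study's comparisons, with list medians as lines and filled points for an adjusted p under 0.05. Collagens and elastin lie lowest with RNLS (medians -0.79 and -0.60) and chaperones of the endoplasmic reticulum lowest with CKD (-0.53).

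Other markers moved with the groups as well, and their part in these results was not tested. Of 10 endothelial markers, 0 rose and 5 fell with RNLS in wild type, and 1 rose and 3 fell in the knockout. Of all tested genes, 2.19% rose and 2.28% fell in wild type, and 9.05% rose and 7.04% fell in the knockout. Atrial markers summed to 533 to 3000 CPM in WTCKD and 576 to 945 in WTCKD + RNLS, and to 571 to 3180 in KOCKD and 520 to 667 in KOCKD + RNLS. With the atrial score as a covariate, Loxl1 was called in both genotypes (-0.72 and -0.77, adjusted p = 0.0155 and 0.0067), and so was Serpinh1 in the knockout (-0.73, adjusted p = 0.00411). In the same fit the knockout call of Lox was lost (-1.01, adjusted p = 0.0573), and Loxl2 in the knockout was at -0.50 (adjusted p = 0.209). Macrophage markers summed to 491 to 670 CPM in WTSHAM, 395 to 526 in WTCKD and 350 to 394 in WTCKD + RNLS. In the knockout they summed to 358 to 432 in KOCKD and 259 to 342 in KOCKD + RNLS. Of these 10 markers, 0 rose and 1 fell with CKD, beside 0.599% and 1.7% of all tested genes. With RNLS 0 rose and 0 fell in wild type, and 0 rose and 2 fell in the knockout. Erythrocyte markers differed by a median log2 of -2.75 with CKD and 2.76 with RNLS in wild type.

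In the mouse build mm9 (GENCODE vM1) the genes lie at chr10:58786044-58836052 (P4ha1, plus strand), chr11:53913597-53945167 (P4ha2, plus), chr11:120421612-120434567 (P4hb, minus), chr4:147283862-147310876 (Plod1, minus), chr9:92437061-92503266 (Plod2, plus), chr5:137462889-137472518 (Plod3, plus), chr7:106493885-106501740 (Serpinh1, minus), chr9:58135530-58161019 (Loxl1, minus) and chr14:70008978-70095640 (Loxl2, plus), with Lox on chromosome 18. The build behind the counts was given in 2 ways, so these positions need not be those used for counting. All are protein-coding, and a count covers the exons of a gene. Plod3 shares 529 exon bases with Znhit1 on the opposite strand and 9 with the microRNA gene Mir702, so its count is uncertain if strand was not used. The other 9 share no exon bases with another gene in that annotation.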

How the data were processed

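Messenger RNA of 15 mouse hearts was sequenced from stranded libraries. Per the labels and the study's methods, the authors trimmed reads with Trimmomatic, aligned them with HISAT2, counted them per gene with HTSeq (strand option not given in the sources used here) and derived FPKM with Cufflinks. The genome build was given both as mm9 and, in the submitters' processing notes, as GRCm39, so the build behind the counts is not settled. The deposited raw counts were used for all tests, and the deposited FPKM, which equal counts divided by gene length and library total, only for levels between genes.

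Counts were analysed in R 4.3.3 with edgeR 4.0.16 (TMM scaling, filterByExpr with a minimum count of 10 and a minimum total of 15, quasi-likelihood F test, all 15 libraries, group as the only term, two-sided, Benjamini-Hochberg adjustment over 13021 genes, threshold 0.05). CPM were computed on TMM-scaled library sizes (factors 0.925 to 1.05), log2 CPM with a prior count of 2. SE was the log2 fold change divided by the square root of F, and 95% intervals used the t quantile of the fit. Fold changes are first group against second. The scripts were tested on simulated counts. DESeq2 1.42.0 was an alternative, beside no low-count filter, RLE scaling, only the libraries compared, a block for the replicate number, gene-length offsets and leaving out each library. Covariates for marker scores were added after seeing the data.

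The 10 genes and the lists were chosen with earlier results of these data known. All 10 genes are named in every comparison, and of each pathway list up to 3 genes with the largest rise and 3 with the largest fall among those past the threshold. The titles number the replicates, and p-values measure the spread between these samples. The count columns carry prefixes that differ within WTSHAM (WM for replicate 1, WT for 2 and 3). They also differ within WTCKD + RNLS (RM for replicates 1 and 2, WM for 3). Each of WTCKD (wm), KOCKD (s) and KOCKD + RNLS (WM) has a single prefix. What the prefixes mean was not stated, and their part in the results was not tested. Sampling error at 10480788 to 13424078 counted reads per library weighs most on Lox.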

Additional observations from a re-analysis of the deposited data

How the results depend on the processing

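Over all alternatives, 726 values of single genes kept their direction and their side of the threshold, 27 lost the call, 15 gained it and 42 changed sign. None of the genes that changed sign was called in the comparison where it did so, and where no cause is given the cause was not tested.

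The 2 genes called with CKD became 3 with DESeq2 and 3 with gene-length offsets (Plod3 added), 1 with RLE scaling and 1 with the replicate number as a block. They became 0 with only the libraries compared or with the heat shock score. The 1 gene called with RNLS in wild type became 0 with the fibroblast score, and the 3 in the knockout became 5 with DESeq2, 4 with no low-count filter, RLE scaling, only the libraries compared or the fibroblast score, and 2 with the replicate block. By the study's rule, the 1 gene for the difference between the RNLS effects became 2 with only the libraries compared. Leaving out each library in turn gave 0 to 2 genes with CKD, 1 with RNLS in wild type, 2 to 5 in the knockout (5 without KOCKD replicate 3) and 0 for the other contrasts. By the study's rule it gave 2 to 4, 2 to 5 (2 without WTCKD replicate 2), 4 to 6, 0 to 2 for KOCKD against WTCKD (2 without KOCKD replicate 1) and 1 to 3 for the difference (3 without WTCKD + RNLS replicate 1 or KOCKD replicate 3).

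The same replicate numbers occur in every group, but same-numbered libraries did not deviate together (r from -0.36 to 0.334, over 0.1 in 5 of 30 pairs). Serpinh1 with CKD was not called with RLE scaling (-0.51, adjusted p = 0.052) or only the libraries compared (-0.52, adjusted p = 0.112). With the replicate block the calls of Serpinh1 with CKD (-0.52, adjusted p = 0.0728) and of Lox in the knockout (-0.91, adjusted p = 0.0615) were lost, and genes called among all went from 299 to 253, 582 to 522 and 2095 to 1909. Over all genes, DESeq2 gave 584 calls with CKD, 894 with RNLS in wild type and 2401 with RNLS in the knockout. Only the libraries compared gave 99, 380 and 3115, and gene-length offsets gave 710 with RNLS in the knockout.

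Changes of sign with CKD were those of Plod2 with gene-length offsets (1e-04) and of Loxl1 (0.024) and Loxl2 (0.0208) with the fibroblast score. In KOCKD against WTCKD they were Plod2 with length offsets (0.0261) and P4ha2 (-0.0023), Loxl1 (0.0201) and Loxl2 (0.2065) with the fibroblast score. In the difference between RNLS effects they were Plod1 (-0.031) and Loxl2 (0.0812) with the atrial score, and P4ha1 with the fibroblast (0.0322) and heat shock (0.0772) scores. Among fits without 1 library, sign changed within these ranges of log2 fold change. With CKD they were -0.0393 to 0.0072 (P4hb), -0.3474 to 7e-04 (Loxl1) and -0.5182 to 0.0036 (Loxl2). With RNLS they were -0.1061 to 0.0216 for Plod2 in wild type and -0.1466 to 0.0316 (Plod1) and -0.1248 to 0.0096 (Plod3) in the knockout. In KOCKD against WTCKD they were -0.2878 to 0.0656 (P4ha1), -0.0035 to 0.0925 (P4hb), -0.1472 to 0.0361 (Plod1), -0.237 to 0.0438 (Plod2) and -0.106 to 0.0335 (Plod3). For the difference they were -0.253 to 0.1044 (P4ha1), -0.0583 to 0.1284 (Plod1), -0.0435 to 0.0997 (Plod3), -0.5405 to 0.1875 (Lox), -0.3086 to 0.0246 (Loxl1) and -0.339 to 0.1499 (Loxl2).

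With 3 hearts per group the 95% intervals of Lox and Loxl2 spanned more than 1 on the log2 scale, so differences of moderate size between genotypes were not detectable.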
